A study of Mus musculus with 8 samples.

Results

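The genes described here are 10 immediate early genes, Fos, Fosb, Arc, Egr1, Egr2, Junb, Npas4, Nr4a1, Ier2 and Dusp1, chosen by name and matched by symbol in a table of 54735 genes. All 10 were in the table and 9 passed the filter on low counts. Egr2 did not. They were read in RNA-sequencing counts of VTA (ventral tegmental area) punches from 4 unhandled control (CTR) and 4 social stress (SS) mice, 1 library per mouse. All 8 are DBA2/J mice labelled male, and the labels name no transgene and no drug. SS pups spent 30 min per day from postnatal day (PD) 14 to 21 in the cage of an unfamiliar, gonadectomized adult CD1 male, while CTR litters were left undisturbed. The study's methods place the dissection at PD 22, the day after the last session, whereas the sample labels give PD 21 for every mouse, so the hours between the last session and dissection are not known from these sources. Each library pools the left and right punch of 1 mouse, so all cell types of the region are mixed in it. A change in the number of cells of a type and a change in RNA per cell cannot be told apart.

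Immediate early genes are transcribed within minutes of a stimulus, without new protein synthesis, from promoters bound by factors that calcium and kinase signals activate. Most of their mRNAs decay rapidly, so their level reports recent activity and not a lasting state. Fos, Fosb and Junb encode subunits of the AP-1 transcription factor, in which a FOS protein pairs with a JUN protein. Egr1 and Egr2 encode zinc finger transcription factors, Nr4a1 an orphan nuclear receptor and Npas4 a bHLH-PAS factor that is induced by calcium entry in neurons. Arc encodes a protein of the postsynapse that takes part in AMPA receptor endocytosis, Ier2 a small nuclear protein, and Dusp1 a phosphatase that inactivates MAP kinases.

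Promoters are shown for Fos, Junb, Nr4a1 and Dusp1. They were picked by their levels in these data, among the genes with a promoter window. Their SS libraries all lay above the CTR libraries once CTR-2 was left out. Each carries the core of the cAMP response element (CRE), where the activity-dependent factor CREB binds. Fosb, Npas4 and Egr2, the other genes with a window, carry it too. The core therefore does not set the genes shown apart, and no link between it and the levels was tested. Each sequence is the 250 bases before a RefSeq start (GRCm38.p6, the build of mm10), written 5′ to 3′ on the gene's strand. The windows of Nr4a1 and Dusp1 lie inside the gene positions given below, so they precede internal starts and not the outermost annotated ones. Capitals mark the CRE core TGACG or its reverse complement CGTCA, and the full CRE TGACGTCA, which contains both.
Fos, chr12:85473640-85473889, plus strand: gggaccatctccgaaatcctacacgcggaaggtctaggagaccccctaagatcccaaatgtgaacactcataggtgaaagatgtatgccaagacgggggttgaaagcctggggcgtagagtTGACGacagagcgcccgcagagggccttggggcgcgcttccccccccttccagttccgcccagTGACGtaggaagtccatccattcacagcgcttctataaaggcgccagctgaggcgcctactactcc
Junb, chr8:84978749-84978998, minus strand: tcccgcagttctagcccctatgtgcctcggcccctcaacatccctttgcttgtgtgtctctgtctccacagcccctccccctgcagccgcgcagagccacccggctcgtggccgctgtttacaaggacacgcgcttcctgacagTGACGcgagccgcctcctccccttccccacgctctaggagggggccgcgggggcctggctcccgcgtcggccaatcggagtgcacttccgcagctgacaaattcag
Nr4a1, chr15:101266596-101266845, plus strand: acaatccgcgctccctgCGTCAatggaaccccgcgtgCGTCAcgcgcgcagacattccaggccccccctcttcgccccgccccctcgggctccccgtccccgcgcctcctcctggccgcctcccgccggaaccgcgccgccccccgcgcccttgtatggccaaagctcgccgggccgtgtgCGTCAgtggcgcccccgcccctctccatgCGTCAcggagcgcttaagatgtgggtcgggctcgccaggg
Dusp1, chr17:26508473-26508722, minus strand: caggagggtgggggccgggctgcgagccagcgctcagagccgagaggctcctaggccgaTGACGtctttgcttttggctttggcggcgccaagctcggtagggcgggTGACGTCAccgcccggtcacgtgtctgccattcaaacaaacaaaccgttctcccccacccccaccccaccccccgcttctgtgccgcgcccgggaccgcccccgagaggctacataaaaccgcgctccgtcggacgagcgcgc

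The CRE core begins 129 and 66 bases before the start of Fos, 106 before that of Junb, 60 before that of Fosb and 179 and 169 before that of Npas4. Nr4a1 has 4 cores, at 233, 213, 69 and 40 bases before its start, and Dusp1 a core at 191 and a full CRE at 143. Egr2 has 5 annotated starts, and windows before 3 of them hold the core. Of the 10 genes, 7 had windows in the RefSeq table, and each of the 7 had the core before at least 1 start. The core was found in 9 of the 11 windows of these genes, and in 17.8% of all 32851 windows of the same length. The 3 Egr2 windows with the core overlap and hold the same sites, so the 11 windows are not separate observations. The full CRE, in 1 of the 11 windows, was in 1.55% of all. The EGR motif, as GCGTGGGCG or GCGGGGGCG on either strand, was found before Fosb and Nr4a1 and in 3.06% of all windows. The CArG box, to which serum response factor binds, was found in 4 windows, all of Egr2, and in 1.47% of all. In the 3 overlapping Egr2 windows it is the same box. Windows of Arc, Egr1 and Ier2 were not used here. Sites further upstream than 250 bases before a start were not searched for, so a motif missing from a window may lie outside it.

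Library totals ranged from 20036086 counts in CTR-1 to 47319997 in SS-3, and 16538 genes passed the filter. Levels are given as CPM, counts scaled to the TMM-normalized library total. Where 4 values are listed without names, they follow the library numbers, which are 1, 2, 3, 5 for CTR and 2, 3, 4, 5 for SS. Some libraries stood apart before any comparison. CTR-5 and SS-5, labelled male like the others, held 14997 and 6551 counts of Xist and at most 3 counts of 4 Y-linked genes together. The other 6 held 0 to 3 counts of Xist and 2293 to 7892 of the Y-linked genes. CTR-5 and SS-5 thus had the pattern of female mice, against their labels. CTR-1 and CTR-2 had no count for 435 and 356 of the 1984 genes at a mean of 1 to 3 CPM, against 1 to 92 in the other 6. Dopamine neuron markers differed between the groups. Their summed level over 14 markers, all detected, was 1616 to 3360 CPM over the CTR libraries and 718 to 782 CPM over the SS libraries. Of the 14, 13 were lower in SS, 6 of them past the threshold used below, and 1 was higher. The sum hides how unevenly they differed. The mean of Slc6a3 was 448 ± 186 CPM for CTR and 6.19 ± 4.13 CPM for SS (SD, n = 4 per group). That of Th was 281 ± 147 and 17.8 ± 5.20 CPM. Dlk1, the most abundant marker, was at 523 ± 192 and 253 ± 70.6 CPM.

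No immediate early gene differed between SS and CTR past an adjusted p of 0.05 in edgeR's quasi-likelihood test, where 0.0847% of all tested genes did. These 14 genes were all lower in SS, so the share of tested genes called higher was 0%. No member was called with DESeq2 or with limma voom either. All 9 tested members had a higher fitted mean in SS, with log2 fold changes (SS relative to CTR) from 0.18 for Arc to 0.79 for Fos and a median of 0.50. Over all 16538 tested genes, 50.6% were higher in SS and the median was 0.00. Fos and Junb, 2 of the 9, had an unadjusted p under 0.05 and were higher in SS, as were 2.85% of all tested genes. With DESeq2 3 members did, against 2.74% of all genes higher in SS, with voom 4 members, against 4.35%, and with edgeR's bias-adjusted estimate 4 members, against 3.67%. In 1 member, Junb, every SS library lay above every CTR library, which holds for 2.47% of all tested genes. The members share libraries and respond to the same signals, so their common direction is not 9 separate observations.

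**Figure D1:**
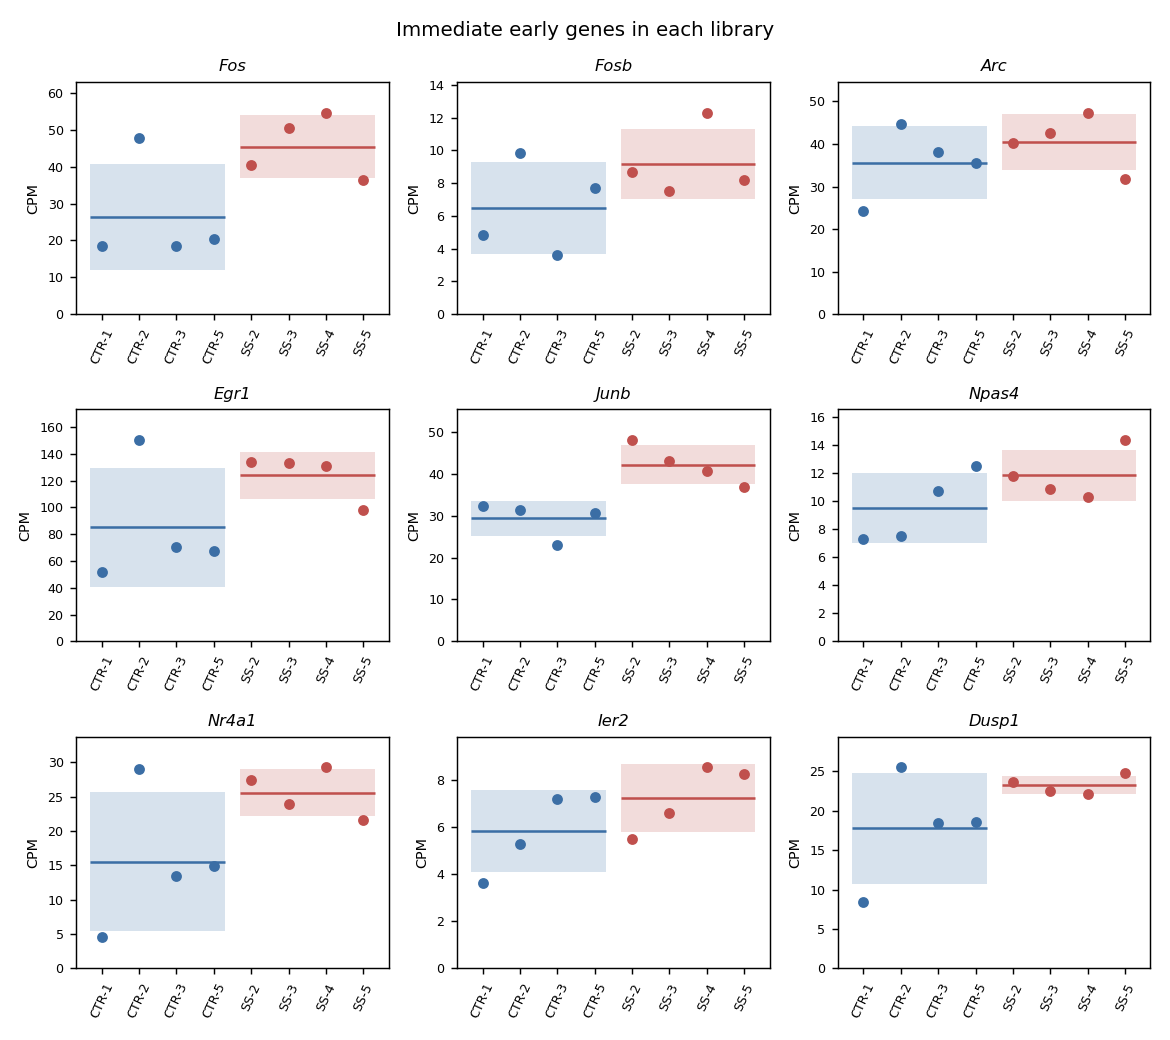
Level of each tested immediate early gene in CPM (vertical axes, from 0) in the 4 CTR libraries (blue) and the 4 SS libraries (red), 1 point per mouse. Lines are group means and shaded bands 1 SD. Junb shows no overlap between groups, while CTR-2 lies within or above the SS range for Fos, Fosb, Arc, Egr1, Nr4a1 and Dusp1.

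Fos (chr12:85473890-85477273, GRCm38), the founding member of the AP-1 family and the most used marker of neuronal activation, was at 18.6, 47.8, 18.6 and 20.5 CPM over the CTR libraries, the second of these being CTR-2. The SS libraries were at 40.4, 50.5, 54.7 and 36.4 CPM. CTR-2 was thus among the SS libraries and the other 3 CTR libraries lay below all of them. The mean was 26.4 ± 14.3 CPM for CTR and 45.5 ± 8.57 CPM for SS (SD, n = 4 per group). The log2 fold change was 0.79 (SE 0.29, 95% interval 0.15 to 1.42, unadjusted p = 0.020, edgeR adjusted p = 0.75). An exact two-sided permutation test over the 70 assignments of 4 and 4 libraries gave p = 0.086, where the smallest p this design allows is 0.029.

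Junb (chr8:84974484-84978718), the JUN partner in the set, was at 32.2, 31.4, 23.1 and 30.6 CPM over the CTR libraries. The SS libraries were at 48.1, 43.1, 40.7 and 36.8 CPM. All SS libraries lay above all CTR libraries, and CTR-2 was not set apart here. Its mean was 29.3 ± 4.23 CPM for CTR and 42.2 ± 4.72 CPM for SS (SD, n = 4 per group). The log2 fold change was 0.52 (SE 0.15, 95% interval 0.20 to 0.85), or 1.44-fold. The adjusted p was 0.57 (unadjusted p = 0.0040) in edgeR's test, and the exact permutation p was 0.029. Over the fits that each left out 1 library, its log2 fold change stayed between 0.42 and 0.59, and its unadjusted p between 0.0024 and 0.018. Its annotated exons share 173 bases with Prdx2 on the opposite strand, and whether counting used strand is not stated. Prdx2, a peroxiredoxin, ranged over 137 to 206 CPM for CTR and 143 to 161 CPM for SS, and its log2 fold change was -0.20 (SE 0.12).

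Fosb (chr7:19302696-19310051) was the lowest of the AP-1 members per length. Its CTR libraries were at 4.86, 9.82, 3.59 and 7.72 CPM, and its SS libraries at 8.66, 7.55, 12.3 and 8.20 CPM. The groups overlapped, and CTR-2 exceeded 3 SS libraries. For Fosb the log2 fold change was 0.50 (SE 0.33, 95% interval -0.23 to 1.22, edgeR adjusted p = 0.80). Counts per gene do not separate the full-length Fosb transcript from its truncated splice form, ΔFosB, which accumulates with repeated stimulation.

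Egr1, a zinc finger factor with a high resting level in the brain, had the highest level per length of the set in both groups. The CTR libraries were at 51.7, 150, 70.5 and 67.3 CPM and the SS libraries at 134, 133, 131 and 97.8 CPM. CTR-2 had the highest Egr1 of all 8 libraries, and the other 3 CTR libraries lay below every SS library. The mean was 85.0 ± 44.4 CPM for CTR and 124 ± 17.5 CPM for SS (SD, n = 4 per group), and the log2 fold change was 0.54 (SE 0.27, 95% interval -0.05 to 1.14, edgeR adjusted p = 0.75). Egr1 was the closest member to Fos, with a root mean square difference of 0.20 between their log2 CPM profiles over the 8 libraries, each centred on its own mean. It was the smallest of the 36 pairs, which went up to 0.77 for Npas4 and Nr4a1.

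Egr2 (chr10:67535475-67542188), known from hindbrain patterning and myelinating glia of the nerves, was close to undetected. It had 13 counts in CTR-2, 16 in CTR-5, 13 in SS-3 and 14 in SS-5, and 0 in CTR-1, CTR-3, SS-2 and SS-4. Set against the library totals, a count of 0 allows up to 0.150 CPM in CTR-1, 0.128 in CTR-3, 0.0723 in SS-2 and 0.115 in SS-4 (3 counts, counting error only). Each group held 2 libraries with and 2 without Egr2. Of 1130 genes with a total within 20% of its 56 counts, 54.0% were also at 0 in 4 or more libraries. The zeros did not follow library depth: SS-2, without Egr2, had 41509698 counts in total, and SS-5, with 14 counts of it, had 25248618. The limits above therefore leave out whatever else made these zeros, which was not tested. No difference in Egr2 could be read from these counts.

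Nr4a1 (chr15:101254269-101274795), also called Nur77, showed the widest spread in CTR. The CTR libraries were at 4.65, 29.1, 13.5 and 15.0 CPM, a 6.26-fold range, and the SS libraries at 27.4, 24.0, 29.3 and 21.6 CPM, a 1.36-fold range. CTR-2 lay inside the SS values and the other 3 CTR libraries below them. For Nr4a1 the log2 fold change was 0.72 (SE 0.39, 95% interval -0.14 to 1.57, edgeR adjusted p = 0.76).

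Dusp1 (chr17:26505590-26562128), the feedback phosphatase of the MAP kinases and also a target of the glucocorticoid receptor, was the steadiest member in SS. The SS libraries were at 23.6, 22.5, 22.1 and 24.8 CPM, and the CTR libraries at 8.42, 25.6, 18.5 and 18.6 CPM. CTR-2 was again the highest of all libraries and the other 3 CTR libraries lay below every SS library. For Dusp1 the log2 fold change was 0.38 (SE 0.26, 95% interval -0.19 to 0.96, edgeR adjusted p = 0.80).

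The neuronal genes Arc and Npas4, and Ier2, differed least. Arc (chr15:74669083-74672570) was at 24.2, 44.7, 38.0 and 35.6 CPM in the CTR libraries and 40.2, 42.7, 47.4 and 31.8 CPM in the SS libraries. Its log2 fold change was 0.18, with a 95% interval from -0.23 to 0.60, so that an increase beyond 1.51-fold or a decrease below 0.854-fold of the CTR level lies outside the interval. Npas4 (chr19:4984355-4990316) was at 7.34, 7.55, 10.8 and 12.5 CPM over the CTR libraries and 11.8, 10.9, 10.3 and 14.4 CPM over the SS libraries. CTR-2 was among the lowest for Npas4, unlike for Fos and Egr1. Ier2 (chr8:84661331-84662852) was at 3.62, 5.29, 7.17 and 7.28 CPM over the CTR libraries and 5.50, 6.58, 8.55 and 8.24 CPM over the SS libraries. The log2 fold changes were 0.31 (SE 0.23) for Npas4 and 0.30 (SE 0.30) for Ier2, with adjusted p of 0.82 and 0.87 in edgeR's test. The groups overlapped in all 3 genes.

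The libraries kept much of their order across the set. CTR-1 was below the lowest SS library in 9 of 9 members, CTR-3 in 6, CTR-5 in 5 and CTR-2 in 3. Over all tested genes, CTR-1 lay below the lowest SS library in 39.6%, CTR-3 in 26.1%, CTR-5 in 21.3% and CTR-2 in 34.9%. The mean of the 9 members' log2 CPM, each centred on its mean over all libraries, was -0.84, 0.22, -0.35 and -0.14 for the CTR libraries and 0.26, 0.26, 0.42 and 0.17 for the SS libraries. CTR-2 thus lay between SS-5 and the other SS libraries, and SS-4 was the highest library for 5 of the 9 members. The spread was wider in CTR: the SD of log2 CPM was larger in CTR than in SS for 9 of 9 members, and for 83.1% of all tested genes.

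**Figure D2:**
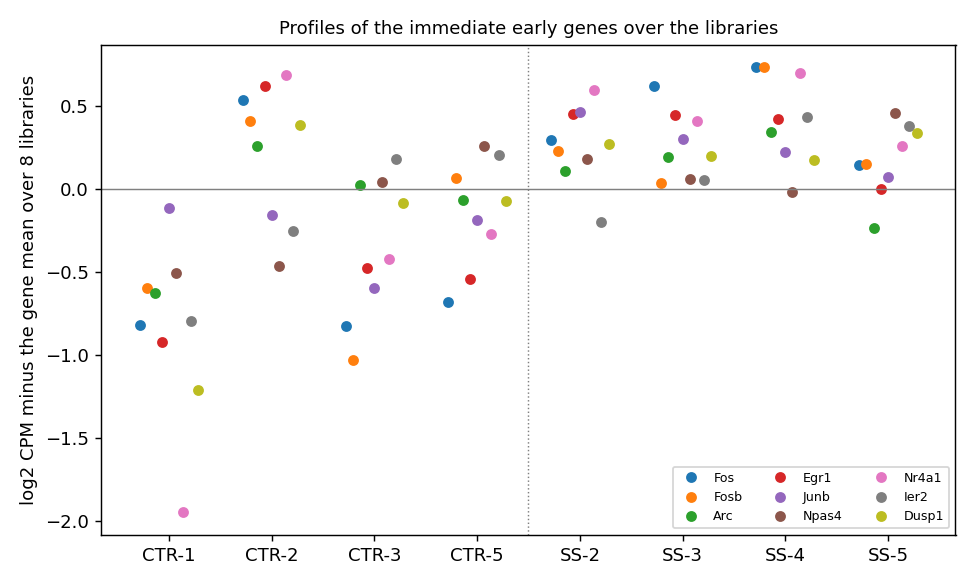
Centred log2 CPM (vertical axis: log2 CPM minus the gene's mean over the 8 libraries) of the 9 tested immediate early genes, 1 colour per gene, in each library (horizontal axis, CTR left and SS right of the dotted line; points are shifted sideways only to be seen). CTR-1 is below 0 for all 9 genes, with Nr4a1 lowest at -1.95, and CTR-2 is above 0 for all but Junb, Npas4 and Ier2.

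The call of Fos and the overlap of the groups depended on CTR-2. Without CTR-2, the log2 fold change of Fos was 1.24 (SE 0.17, edgeR adjusted p = 0.029), and Fos was the 1 member called, where 0.111% of the 17101 genes tested without CTR-2 were called. The log2 fold change was then 0.97 for Egr1 (adjusted p = 0.056) and 1.20 for Nr4a1 (adjusted p = 0.65). Without CTR-2, all SS libraries lay above all CTR libraries in 5 members, Fos, Egr1, Junb, Nr4a1 and Dusp1, and in 4.05% of all tested genes. The members at an unadjusted p under 0.05 were then 6, against 2.46% of tested genes higher in SS. Leaving out CTR-1 together with CTR-2 gave an adjusted p of 0.047 for Fos, where 0.0916% of the genes tested were called. With those 2 libraries out, 5 members had an unadjusted p under 0.05, against 2.73% of genes higher in SS, and the groups of 5 members did not overlap, against 7.23% of genes. CTR-1 moved several members the other way. Without it the log2 fold change was 0.42 for Nr4a1, 0.16 for Dusp1, 0.04 for Arc and 0.13 for Ier2. Npas4 moved most without CTR-5, to 0.47. Nothing in the labels sets CTR-2 apart, and the values with all 8 libraries stand as the main ones. CTR-2 was singled out by its levels of these same genes. Leaving out the highest CTR library for Fos raises its fold change and narrows the CTR spread, so the p-values without CTR-2 are no support for a difference. Without CTR-5 and SS-5, the libraries with Xist, Fos was at 0.77 (adjusted p = 0.48) and Junb at 0.61 (adjusted p = 0.30), and 1 member, Junb, kept an unadjusted p under 0.05, against 5.06% of genes higher in SS.

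**Figure D3:**
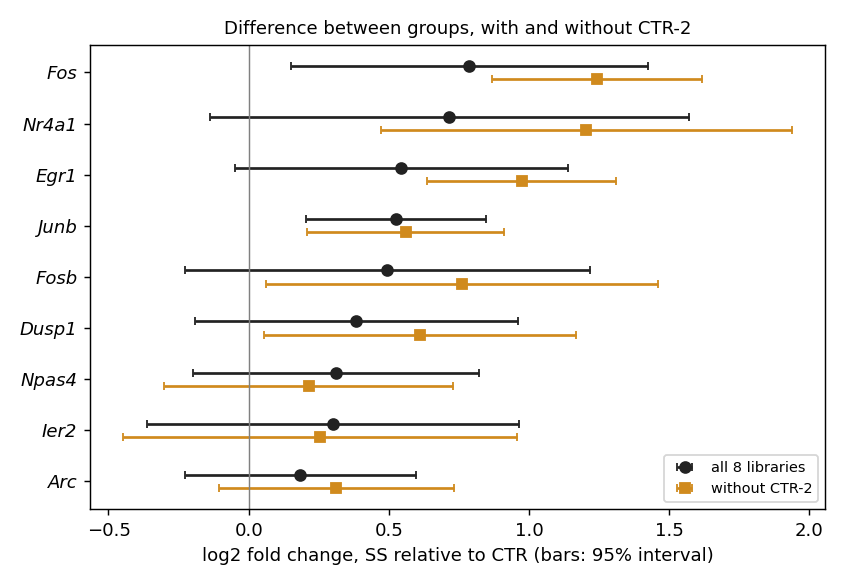
Log2 fold change of each tested immediate early gene, SS relative to CTR (horizontal axis), with all 8 libraries (black circles) and without CTR-2 (orange squares). Bars are 95% intervals of edgeR's fit. The interval excludes 0 for Fos and Junb with all libraries, and for Fos, Fosb, Egr1, Junb, Nr4a1 and Dusp1 without CTR-2.

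Levels were also compared per kb of annotated exon. In SS, Egr1 was highest at 27.6 ± 3.90 CPM per kb, then Fos at 19.3 ± 3.64 and Junb at 18.3 ± 2.05, which did not differ beyond their spread. Arc followed at 13.3 ± 2.14, then Nr4a1 at 7.29 ± 0.979 and Dusp1 at 7.02 ± 0.357, which did not differ either, and then Ier2 at 4.74 ± 0.943, Npas4 at 2.87 ± 0.437 and Fosb at 1.47 ± 0.342 (SD, n = 4 each). In CTR the order was Egr1, Junb, Arc, Fos, Dusp1, Nr4a1, Ier2, Npas4 and Fosb. Neighbours from Egr1 at 19.0 ± 9.91 down to Ier2 at 3.84 ± 1.14 differed by less than the larger of their SDs, whereas Ier2, Npas4 (2.31 ± 0.609) and Fosb (1.04 ± 0.450) were separated by more. Exon lengths span all annotated transcripts, so the values per kb depend on which of them the tissue uses.

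Most of the closest relatives of the members were not higher in SS. Egr3, an EGR factor induced with Egr1 in neurons, was at 4.60, 13.5, 4.88 and 26.7 CPM over the CTR libraries and 8.01, 8.80, 3.73 and 5.31 CPM over the SS libraries. CTR-5 and CTR-2 were above every SS library, and the other CTR libraries were inside the SS range. Its log2 fold change was -0.94 (SE 0.52, edgeR adjusted p = 0.76). Nr4a3 had one of -0.63 (SE 0.59) and was at 34.0 CPM in CTR-5, against 3.80 to 11.3 CPM in the other 7 libraries. Egr4 had one of -0.27 (SE 0.44), with 17.6 CPM in CTR-2 and 3.67 to 7.16 CPM elsewhere. Nr4a2, which is also a transcription factor of dopamine neurons, had one of 0.16 (SE 0.19). Of the other EGR and NR4A genes and the EGR corepressors, 1 of 6 was higher and 5 lower in SS, the median of their log2 fold changes was -0.21 and none passed the threshold. The difference between Egr1 and Egr3, or between Nr4a1 and Nr4a3, was not tested.

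Of the other AP-1 subunits and partners, 6 of 8 passed the filter, 4 were higher and 2 lower, and none had an unadjusted p under 0.05. The mean of Jun was 60.0 ± 9.23 CPM for CTR and 61.3 ± 3.06 CPM for SS (SD, n = 4 per group), and Jund, the most abundant, had a log2 fold change of -0.19 (SE 0.16). Fosl2 had one of 0.02 (SE 0.24). Atf3, a stress-induced bZIP factor, had 0 counts in CTR-1 and CTR-2, 12 and 14 in CTR-3 and CTR-5 and 17 to 28 in the SS libraries, too few for a fold change to be read. Among the MAP kinase phosphatases other than Dusp1, 3 of 9 were higher and 6 lower, with a median of -0.20. Dusp10, a phosphatase of p38 and JNK, was the 1 of these 9 with an unadjusted p under 0.05. It was lower in SS, as were 3.7% of all tested genes at that level. Its log2 fold change was -0.59 (SE 0.24, unadjusted p = 0.033, edgeR adjusted p = 0.75). Dusp8, the most abundant of them, had one of 0.03 and Dusp14 one of 0.15.

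**Figure D4:**
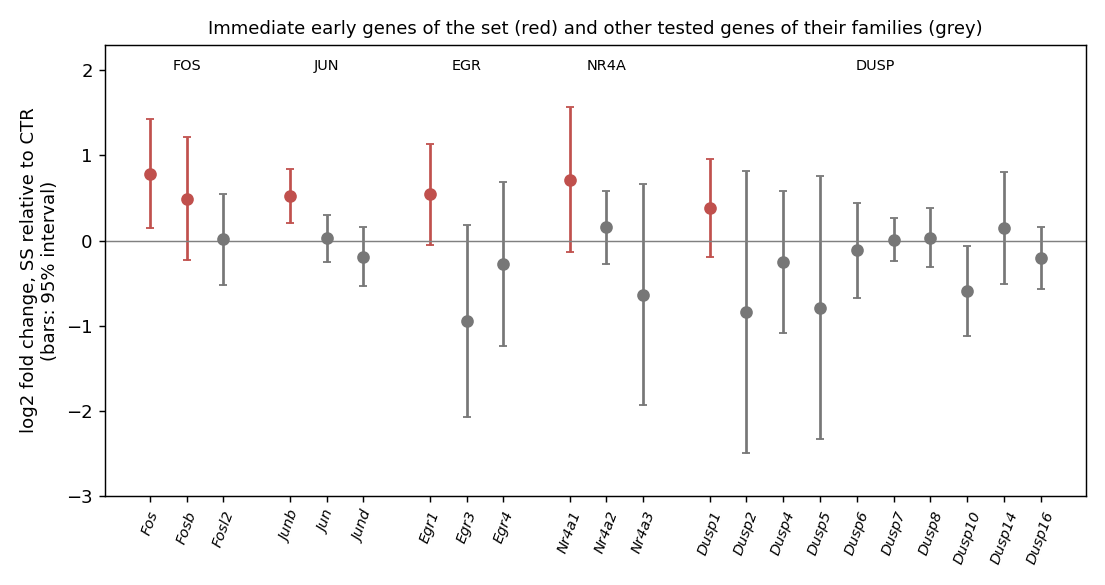
Log2 fold change, SS relative to CTR (vertical axis, with 95% intervals of edgeR's fit), of Fos, Fosb, Junb, Egr1, Nr4a1 and Dusp1 (red) and of the other tested genes of the FOS, JUN, EGR, NR4A and DUSP families (grey). The red points lie between 0.38 and 0.79, and the grey points between -0.94 and 0.16, with intervals that overlap widely. Arc, Ier2 and Npas4, at 0.18 to 0.31, belong to none of these families and are not drawn.

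Among 27 tested other primary response genes, 8 were higher and 19 lower in SS, the median was -0.13 and none passed the threshold. Sik1, a salt-inducible kinase that restrains CREB coactivators, ranged over 20.2 to 23.3 CPM for CTR and 26.0 to 37.7 CPM for SS, and its groups did not overlap. Its log2 fold change was 0.56 (SE 0.15, edgeR adjusted p = 0.54). Plk3, a polo-like kinase, ranged over 20.9 to 29.7 CPM for CTR and 31.7 to 35.2 CPM for SS, also without overlap, and its log2 fold change was 0.47 (SE 0.15, edgeR adjusted p = 0.70). Per1, the clock gene that is also induced by light and by glucocorticoids, had the highest mean over all 8 libraries and a log2 fold change of 0.36 (SE 0.16, edgeR adjusted p = 0.75). These were the 3 of 27 with an unadjusted p under 0.05, all higher in SS, as were 2.85% of all tested genes. All SS libraries lay above all CTR libraries in 2 of the 27, Sik1 and Plk3, and in 2.47% of all tested genes. Rgs2, a regulator of G protein signalling, had the smallest p of those lower in SS, at -0.20 on the log2 scale (SE 0.12, edgeR adjusted p = 0.78).

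The delayed activity-regulated genes follow the immediate early wave and include targets of its transcription factors. Of the 19 tested, 4 were higher and 15 lower in SS, with a median of -0.12, and 4 had an unadjusted p under 0.05, all lower, where 3.7% of all tested genes were. Nrn1, which encodes the synaptic protein neuritin, ranged over 164 to 197 CPM for CTR and 112 to 137 CPM for SS. All its SS libraries lay below all CTR libraries, as in 2.21% of all tested genes, and its log2 fold change was -0.51 (SE 0.10, edgeR adjusted p = 0.15). It was the 1 gene of these lists called by DESeq2 with default options, which called 0.419% of the genes it gave an adjusted p. Bdnf, the neurotrophin whose activity-driven transcripts are targets of Npas4, ranged over 36.0 to 45.8 CPM for CTR and 37.7 to 48.1 CPM for SS, and its log2 fold change was 0.10 (SE 0.13). Scg2, a granin and the most abundant of the list, had one of -0.03 (SE 0.08).

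Of 28 tested upstream regulators, 11 were higher and 17 lower, with a median of -0.08 and none at an unadjusted p under 0.05. Arnt2, the bHLH-PAS partner of Npas4, had a log2 fold change of 0.22 (SE 0.12) and Camk2a one of -0.66 (SE 0.30, edgeR adjusted p = 0.75). Of 14 tested glucocorticoid response genes, 4 were higher and 10 lower, with a median of -0.10. Sgk1, a kinase gene induced by corticosterone, had one of -0.49 (SE 0.19, edgeR adjusted p = 0.75) and Tsc22d3, which encodes GILZ and was the most abundant, one of -0.24 (SE 0.11). Over all these lists together, 107 genes were tested, 34 were higher and 73 lower, and none had an adjusted p under 0.05.

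Markers of forebrain excitatory neurons, a cell type with strong activity-induced expression of these genes, differed between libraries. Their summed level over 10 markers, all detected, was 467, 1054, 651 and 1822 CPM over the CTR libraries and 572 to 610 CPM over the SS libraries. CTR-5 and CTR-2 were the highest, as for Egr3. Camk2a, which is 1 of the 10 markers and the most abundant, made up 939 CPM of the sum in CTR-5 and 552 CPM in CTR-2. CTR-5 lay below every SS library for Fos and Egr1, while CTR-2 was high for both. The 10 endothelial markers summed to 232 to 302 CPM for CTR and 261 to 310 CPM for SS, the 8 mural cell markers to 191 to 270 and 255 to 286 CPM, and the 10 microglia markers to 269 to 369 and 257 to 292 CPM. All 8 mural cell markers had a higher fitted mean in SS, none past the threshold. The 11 markers of the hypothalamus and mammillary region summed to 125, 182, 132 and 83.5 CPM over the CTR libraries and to 159 to 202 CPM over the SS libraries, with CTR-2 the highest CTR library, as for Fos and Egr1. Of the 9 that passed the filter, 8 were higher in SS and none passed the threshold. Pmch, which encodes melanin-concentrating hormone, and Otp, a homeobox factor, had log2 fold changes of 2.54 (SE 0.74) and 2.72 (SE 0.87). In both, all SS libraries lay above all CTR libraries, as in 2.47% of all tested genes. The part of these cell types, and of the lower dopamine neuron markers, in the values of the immediate early genes was not tested.

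**Figure D5:**
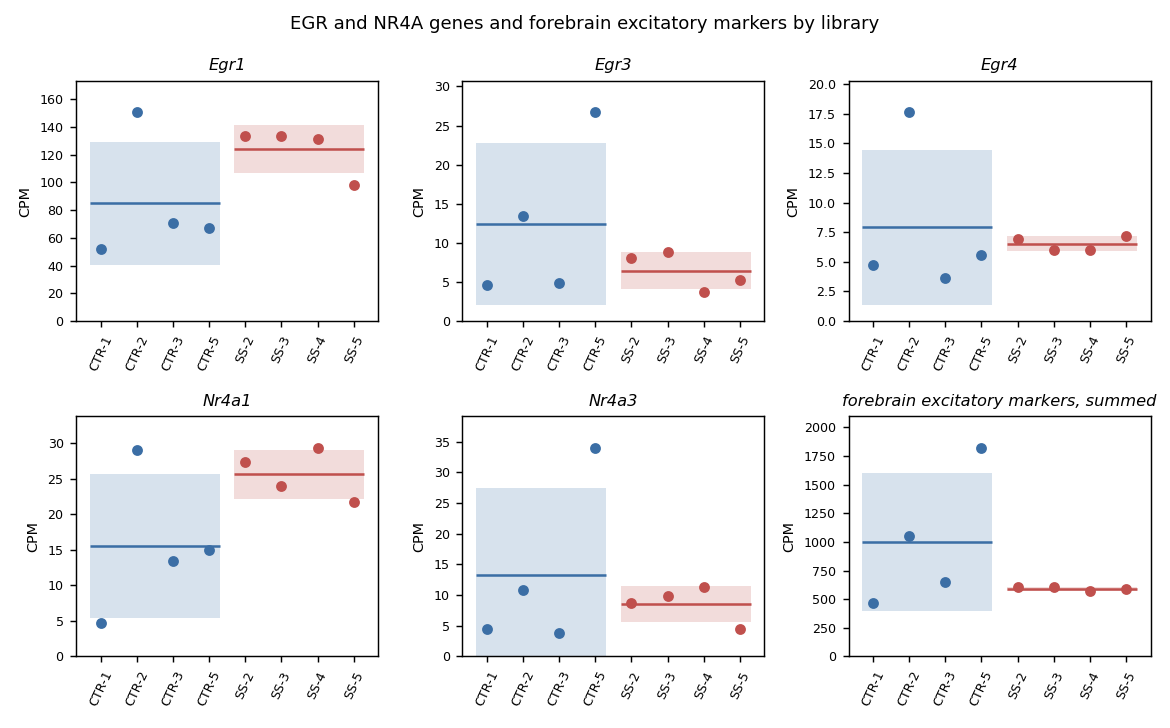
Egr1, Egr3, Egr4, Nr4a1, Nr4a3 and the summed level of 10 forebrain excitatory neuron markers, in CPM (vertical axes, from 0), in the 4 CTR libraries (blue) and the 4 SS libraries (red), with group means (lines) and 1 SD (bands). CTR-5 is highest for Egr3, Nr4a3 and the markers, and CTR-2 for Egr1 and Egr4. The SS libraries span 3.73 to 8.80 CPM for Egr3 and 4.43 to 11.3 CPM for Nr4a3, and SS-5 is the lowest SS library for Egr1.

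Outside the set, the genes whose profiles over the 8 libraries were closest to Fos, by the same root mean square difference of centred log2 CPM, were Lhx1os (0.24), Spry4 (0.25) and Zfp458 (0.25). The closest to Egr1 were Spry4 (0.18), Zmat1 (0.20) and Zfp458 (0.20). Spry4, a feedback inhibitor of receptor tyrosine kinase signalling, was at 7.49, 20.8, 9.03 and 12.7 CPM over the CTR libraries and 18.8, 22.6, 18.8 and 12.98 CPM over the SS libraries. As follows from this choice, Spry4 was, like Fos and Egr1, high in CTR-2 and low in CTR-1 and CTR-3. Its log2 fold change was 0.55 (SE 0.30, edgeR adjusted p = 0.76). The closest to Arc were Npas3 (0.06), Fzd1 (0.08) and Fam13b (0.09). Their log2 fold changes were 0.22, 0.21 and 0.22, against 0.18 for Arc. Genes picked for a like profile over the same libraries must have a like fold change, so this closeness is not a separate result.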

How the data were processed

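Reads (single-end, 75 bp) had been adapter-trimmed by the authors using Cutadapt and mapped by STAR to mm10, and htseq-count assigned them to Ensembl genes. Versions of these tools and the strand setting are not given in the sources used here. The authors deposited whole counts per gene without normalization, 1 column per mouse. Only RNA with a RIN above 7 was used. DBA2/J reads were aligned to the C57BL/6J reference in both groups.

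Counts were analysed in R 4.3.3. Genes passing filterByExpr of edgeR 4.0.16 (minimum count 10, minimum total count 15) were normalized with TMM and compared across all genes with glmQLFit and glmQLFTest, group as the only term, Benjamini-Hochberg adjustment at 0.05. SEs and 95% intervals come from this fit. Single genes were also compared by an exact permutation test of log2 CPM (prior count 2). DESeq2 1.42.0 and voom of limma 3.58.1 were alternatives. The tools were tested on simulated data. No libraries of a group were identical. Positions and exon lengths are from GENCODE M21 (GRCm38), and promoters from RefSeq.

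The members and lists were chosen with earlier results of these data known. Besides the 10 members, named genes are, per list, the gene with the smallest p in each direction and the most abundant, and the 3 genes with profiles most like Fos, Arc and Egr1. Egr4, Nr4a3, Jun, Fosl2, Plk3, Prdx2, Pmch, Otp, Slc6a3 and Th were named after their values were seen. The study assigned whole litters to a group and could take several pups from 1 litter. Which mice were littermates is not given, so p-values measure the spread between these 8 mice.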

Additional observations from a re-analysis of the deposited data

Results flagged for a closer look

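Dixon's ratio, the distance of an extreme library from the next one as a share of its group's range, was computed for 52 gene and group pairs of 4 libraries. Chance flags about 1 in 20 groups, and 2 of the 52 passed the 95% critical value. For Fos in CTR it was 0.934, with CTR-2 the highest at 47.8 CPM and the other 3 libraries at 18.6 to 20.5 CPM. For Egr1 in SS it was 0.925, with SS-5 the lowest at 97.8 CPM and the other 3 at 131 to 134 CPM. SS-5 is also the SS library with Xist. Without SS-5 and CTR-5 the log2 fold change of Fos was 0.77 and that of Junb 0.61.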

How the results depend on the processing

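Fos, Fosb, Egr1, Junb, Npas4, Nr4a1 and Dusp1 stayed higher in SS under all 19 alternatives. Arc reversed to -0.0499 with the replicate block (adjusted p = 0.98) and Ier2 to -0.0051 without CTR-1 and CTR-2. The cause was not tested. The number of members called was 0, and 1 (Fos) without CTR-1 and CTR-2. Over the fits that left out 1 library it ranged from 0 to 1 (Fos, without CTR-2), the members at an unadjusted p under 0.05 from 1 (without CTR-3, CTR-5 or SS-4) to 6 (without CTR-2), and those with all SS above all CTR from 1 to 5 (without CTR-2). Without CTR-1 and CTR-2 the last 2 were 5 and 5, where only 2 CTR libraries remain and 7.23% of genes have all SS above all CTR. The members at an unadjusted p under 0.05 were 2 with all libraries, 4 with voom and with edgeR's bias-adjusted estimate, and 1 without CTR-5 and SS-5. The genes called overall were 14, and 81 with DESeq2 (60 lower, 21 higher), 27 with the bias-adjusted estimate, 22 with no filter or with a mean count of at least 50, 9 without CTR-5 and SS-5, 9 with the replicate block, and 7 at an adjusted p under 0.01. They ranged from 6 to 19 when 1 library was left out, at 6, 7, 8 and 9 without SS-4, SS-3, SS-2 and SS-5 and at 19 without CTR-2. DESeq2 called 1 gene of the other lists. Numbers 2, 3 and 5 occur in both groups, and the deviations of same-numbered libraries correlated at -0.01 to 0.06. The 0.06 was that of CTR-5 and SS-5, which both held Xist. Whether same-numbered libraries share a litter or a batch is not given and cannot be read from these correlations. Low counts limit Egr2 and Atf3. With 4 against 4, an exact permutation p cannot go below 0.029.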
